A study of Mus musculus with 171 samples.

Results

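The primitive endoderm (PrE) cells of E3.75 wild-type (WT) mouse embryos were compared with the inner cell mass (ICM) of E3.5 WT embryos, across all genes, by single-cell RNA sequencing in which each deposited sample is 1 cell. The cells were taken by their titles and type labels: 10 PrE cells of 3 E3.75 embryos and 64 ICM cells of 5 E3.5 embryos, 74 of the 171 cells and 8 of the 17 embryos of the series. Raw counts were summed per embryo, so n is 3 PrE sums against 5 ICM sums. The PrE sums hold 3 cells (embryo 1, female), 6 cells (embryo 2, female) and 1 cell (embryo 3, male). The ICM sums hold 7 cells (embryo 13, male), 15 (embryo 16, male), 14 (embryo 20, male), 17 (embryo 21, female) and 11 (embryo 22, female). Other cells are used for 2 further comparisons: 19 epiblast (EPI) cells of the same 3 E3.75 WT embryos, and cells labelled Stat3 -/- (called MUT in the titles), which are 14 PrE cells of 4 E3.75 embryos and 55 ICM cells of 5 E3.5 embryos. The WT cells carry no other allele or treatment in the labels, and the strain, the embryos' handling and the way in which a cell was given the PrE or EPI label are stated neither in the labels nor in the notes used here. The E3.75 stage stands in the titles, whereas another label of the same cells reads E3.5.

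In the mouse blastocyst the ICM gives rise to the pluripotent epiblast and to the primitive endoderm. FGF4 from epiblast-fated cells acts on FGF receptors and the ERK kinases and favours the endoderm fate, in which GATA6, SOX17 and GATA4 are known to act in turn while NANOG is lost. Endoderm cells later secrete the laminin and collagen IV of the basement membrane beneath them and give rise to the visceral and parietal endoderm of the yolk sac.

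The 3 PrE sums held 12112016 to 66754692 counts and the 5 ICM sums 28675202 to 122331780 counts. The titles also carry a letter whose meaning is not given. It is A or C for the WT E3.75 cells and D to H for the WT E3.5 cells, so stage and letter cannot be told apart in any PrE and ICM comparison below. PrE cells were deeper, with a median of 11123514 counts per cell against 5064704.5 in ICM cells. They also showed more detected genes, at 11232 ± 349 (SD over embryo medians, n = 3) against 8829 ± 157 in ICM (n = 5; exact two-sided permutation p = 0.0357, the smallest that 56 splits allow). After thinning every cell to 1000000 counts, the values were 8844.5 ± 542 in PrE and 6749 ± 447 in ICM, with the same p; 3 shallower ICM cells were left out. Mitochondrially encoded mRNAs took 4.52 ± 0.103% of counts in PrE and 4.86 ± 0.921% in ICM (exact permutation p = 0.5). With all cells at that thinned depth, 187 genes were called between PrE and ICM, among them 45 of the 46 called at full depth. Without the cells that lay more than 3 median absolute deviations below their stage in counts or detected genes, 33 were called, all of them among those 46.

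One cell goes against its label. Cell 7 of WT embryo 1, labelled PrE, had 10434 CPM (counts scaled to 1000000, here by the cell's own total) summed over 11 trophectoderm markers, the outer layer of the blastocyst, with 9 of the 11 at 10 CPM or more. The other 9 PrE cells summed to between 7.71 and 826 CPM over the same markers, and the highest ICM cell to 1374 CPM. In that cell the keratin genes Krt8 and Krt18 stood at 5848 and 3514 CPM, Gata2 at 428 and Gata3 at 204 CPM, and the trophectoderm factors Elf5 and Cdx2 at 141 and 99.4 CPM. Its 11 PrE markers summed to 490 CPM, against 2480 to 10049 CPM in the other 9 PrE cells. In it 4 of the 11 were at 10 CPM or more, against 9 to 11 in each of the other PrE cells. These 4 were Gata6 at 89.7, Sparc at 296, Col4a1 at 56.4 and Lama1 at 36.5 CPM. Sox17, Gata4 and Pdgfra were at 0.934, 0.934 and 1.31 CPM in it. It makes up 1 of the 3 cells of embryo 1, and results that rest on it are given with and without it. It was set apart by these marker genes, so their results without it test nothing further. In the other 9 cells Sox17, Gata4, Gata6 and Pdgfra were each at 10 CPM or more after thinning.

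Between the PrE and the ICM, 32 genes were higher (0.243% of the 13190 tested) and 14 lower (0.106%) in edgeR's quasi-likelihood test at a Benjamini-Hochberg adjusted p under 0.05, the test and adjustment behind every adjusted p below. Sox17, a SOX-family transcription factor of the endoderm, had the largest positive log2 fold change of the called genes after Pon2, whose ICM level rests on 5 counts, and the collagen IV gene Col4a2, the DNA methyltransferase Dnmt3b and the early growth response gene Egr1 were also higher. The growth factor gene Fgf4 was lower, together with the imprinted gene Snrpn and the heat shock genes Hspa8 and Stip1. How the cells got the PrE label is not stated. If expression was used, a difference from the ICM in the genes used was fixed in advance. The adjusted p of such genes would test nothing further. None of the 46 called genes overlapped between the 2 groups of embryos, against 6.2% of all tested genes that were higher in every PrE sum and 8.35% that were lower. Without the trophectoderm-like cell 7, 30 genes were higher (0.229% of 13108) and 17 lower (0.13%), and 37 of the 46 remained among them. The calls also rest on single embryos: 22 genes passed without PrE embryo 1, 2 without PrE embryo 2, 0 without PrE embryo 3 (1632 at an unadjusted p under 0.05), 29, 11, 8, 18 and 42 without ICM embryos 13, 16, 20, 21 and 22. All 46 kept their direction in those 8 fits, and 12 of them share an adjusted p of 0.04996, just under the threshold.

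Because Col4a2 lies head to head with Col4a1, and Dnmt3b and Fgf4 changed in opposite directions, their RefSeq promoters (GRCm38.p6; 250 bases before to 50 after the gene's start, 5′ to 3′ on the gene's strand) are shown. Capitals mark CCGCCC or its reverse complement GGGCGG, letters bound by SP and KLF factors, and in Dnmt3b also GCGGGGGCG, letters bound by EGR factors. The windows are Col4a2 at chr8:11312555-11312854 on the plus strand, Col4a1 at chr8:11312777-11313076 on the minus strand, Dnmt3b at chr2:153649199-153649498 on the plus strand and Fgf4 at chr7:144861136-144861435 on the plus strand.
Col4a2: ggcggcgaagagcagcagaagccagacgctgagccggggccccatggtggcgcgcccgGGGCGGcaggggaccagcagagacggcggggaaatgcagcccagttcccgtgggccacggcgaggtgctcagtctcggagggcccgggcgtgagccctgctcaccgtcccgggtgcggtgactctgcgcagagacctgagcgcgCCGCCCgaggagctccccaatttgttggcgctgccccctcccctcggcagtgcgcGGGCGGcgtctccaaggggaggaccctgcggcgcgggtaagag
Col4a1: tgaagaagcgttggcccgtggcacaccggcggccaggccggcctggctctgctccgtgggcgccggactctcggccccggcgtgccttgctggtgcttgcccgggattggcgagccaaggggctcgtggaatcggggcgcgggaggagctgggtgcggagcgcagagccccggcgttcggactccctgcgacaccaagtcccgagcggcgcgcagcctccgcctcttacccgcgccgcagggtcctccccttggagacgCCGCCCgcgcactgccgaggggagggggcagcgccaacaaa
Dnmt3b: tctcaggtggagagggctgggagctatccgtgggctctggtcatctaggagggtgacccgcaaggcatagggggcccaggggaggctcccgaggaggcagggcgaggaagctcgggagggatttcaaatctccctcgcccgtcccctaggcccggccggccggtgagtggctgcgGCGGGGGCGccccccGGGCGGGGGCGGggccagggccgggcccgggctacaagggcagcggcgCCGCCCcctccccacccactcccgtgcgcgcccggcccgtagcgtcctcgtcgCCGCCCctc
Fgf4: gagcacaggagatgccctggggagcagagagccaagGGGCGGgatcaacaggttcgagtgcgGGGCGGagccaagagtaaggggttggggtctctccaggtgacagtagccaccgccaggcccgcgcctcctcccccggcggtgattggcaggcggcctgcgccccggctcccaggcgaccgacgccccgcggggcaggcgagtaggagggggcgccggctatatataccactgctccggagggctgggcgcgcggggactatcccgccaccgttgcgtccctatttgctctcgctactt
The windows of Col4a2 and Col4a1 overlap, so part of each is the reverse complement of the other. CCGCCC was found 3 times in the Col4a2 window, 1 time in Col4a1, 4 times in Dnmt3b and 2 times in Fgf4, counting both strands. GCGGGGGCG was found 2 times in the Dnmt3b window and 0 times in the 3 others. In Dnmt3b, the match nearer the gene's start runs into matches of GGGCGG. Neither GATAA nor ACAAT, letters bound by GATA and SOX factors, was found on either strand of the 4 windows. Of all 32851 RefSeq promoters, 35.7% hold CCGCCC, 2.91% GCGGGGGCG, 25.4% GATAA and 31.0% ACAAT. These matches describe the letters and not binding sites.

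Among the PrE transcription factors, Sox17 is the gene that passed, and whether it was used to give the PrE label is not stated. Its level, in CPM scaled over all sums as for every embryo value from here on, was 313, 495 and 499 CPM in PrE embryos 1, 2 and 3, against 1.39, 0.3, 2.92, 5.66 and 3.31 CPM in ICM embryos 13, 16, 20, 21 and 22. The lowest PrE embryo thus stood far above the highest ICM embryo, and without cell 7 embryo 1 was at 477 CPM. The log2 fold change was 7.34 (SE 0.81, adjusted p = 0.00855), and it passed in 6 of the 8 fits without 1 embryo. The lists and their members were drawn up with earlier results of these data known, so their counts describe the genes and test nothing further. Each list count from here on is to be set beside the shares over all 13190 tested genes. Of these, 5948 had a positive log2 fold change, 0.243% were called higher and 0.106% lower. Where leaving out 1 embryo turned the sign of a list's median or moved it widely, the values that moved most stand beside it; the low-count filter was applied anew in those fits, so the number of genes tested can differ. Of the 15 PrE factors tested of 18 listed, 12 had a positive and 3 a negative log2 fold change, with a median of 1.14 beside −0.17 over all genes; without cell 7 the medians were 1.19 and −0.20, and without ICM embryo 22 the median of the factors was 1.76.

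**Figure D1:**
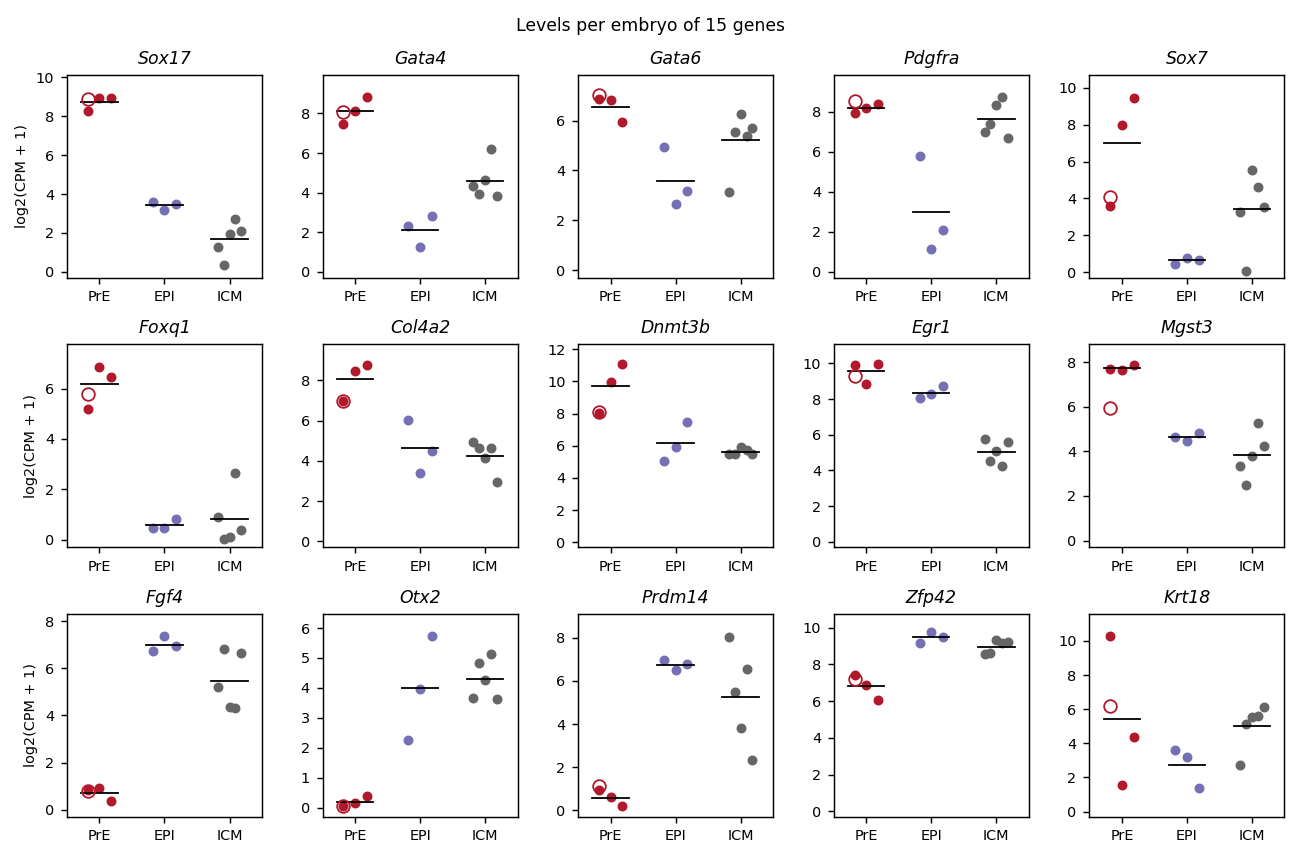
Expression of 15 genes in each embryo, as log2(CPM + 1) on the vertical axis, with PrE, EPI and ICM sums as points from left to right, a bar at each group's mean and an open circle for PrE embryo 1 without cell 7. Sox17 stands at 313 to 499 CPM in the PrE embryos, 8.15 to 11 CPM in the EPI and 0.3 to 5.66 CPM in the ICM, whereas Gata6 and Pdgfra overlap between PrE and ICM.

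Gata4, a zinc-finger factor of the endoderm, stood at 177, 277 and 460 CPM in the PrE embryos and at 19.2, 14.4, 23.5, 74 and 13.1 CPM in the ICM embryos. The groups did not overlap, but the log2 fold change of 3.43 (SE 0.63) missed the threshold at an adjusted p of 0.0537. Without cell 7 it passed, at 3.55 and an adjusted p of 0.0435. That cell was set apart in part by its low Gata4, so this pass does not test Gata4 further. Gata6, which acts earliest in this lineage, was at 117, 111 and 60.1 CPM in the PrE embryos and at 7.68 to 75.9 CPM in the ICM, with a median of 45.9 CPM. These groups overlapped, with a log2 fold change of 1.14 (SE 0.62, adjusted p = 0.437). Per cell, Gata6 was at 10 CPM or more in 10 of 10 PrE cells and 37 of 61 ICM cells after thinning, while Sox17 was so in 9 of 10 PrE cells and 6 of 61 ICM cells, and Gata4 in 9 of 10 and 17 of 61. The EPI cells of the same embryos, at a depth like that of the PrE cells, reached that level in 4 of 19 cells for Gata6, 8 of 19 for Sox17 and 3 of 19 for Gata4.

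The later endoderm factors varied among the PrE embryos. Sox7 was at 10.8, 252 and 702 CPM in PrE embryos 1, 2 and 3, against 0.0484 to 44.9 CPM in the ICM (log2 fold change 4.24, SE 1.45, adjusted p = 0.223). Foxa2, a forkhead factor, was at 0.0963, 46.1 and 43.8 CPM in the PrE and listed at 0 in 4 of the 5 ICM sums. For both genes PrE embryo 1 lay within the ICM range, also without cell 7, and embryos 2 and 3 lay above it. Foxq1, another forkhead factor, was higher in every PrE embryo, at 35.1, 114 and 87.8 CPM against 0.029 to 5.23 CPM in the ICM. Its log2 fold change of 5.94 carried an SE of 1.51, and its adjusted p was 0.127. Sall4, a zinc-finger factor shared with pluripotent cells, averaged 478 ± 62.2 CPM in PrE and 285 ± 56.7 CPM in ICM (SD, n = 3 and 5; adjusted p = 0.225), and Mycn 136 ± 31.1 CPM in PrE and 30.3 ± 35.6 CPM in ICM (adjusted p = 0.305). Hnf4a, Hhex, Cited1, Klf6, Rhox5 and Tcf7l2 overlapped between the groups, with adjusted p between 0.539 and 0.989. Gata5, Gli2 and Irx3 fell below the filter on low counts and were not tested.

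Of the receptors and ligands, 15 of 22 were tested, 12 with a positive log2 fold change and none called, with a median of 1.66 (1.26 without cell 7). The median was 0.46 without PrE embryo 1, with 9 of 15 positive, 0.99 without PrE embryo 2 and 0.88 without ICM embryo 22. Pdgfra, the PDGF receptor used to mark the lineage, stood at 244, 290 and 331 CPM in the PrE embryos and at 104 to 430 CPM in the ICM, so the groups overlapped (log2 fold change 0.35, SE 0.48, adjusted p = 0.808). It was at 10 CPM or more in 9 of 10 thinned PrE cells, 40 of 61 ICM cells and 4 of 19 EPI cells. Fgfr2, an FGF receptor, had 157, 108 and 1.38 CPM in the PrE embryos and 8.94 to 40.7 CPM in the ICM. Its 2 high PrE embryos are those of letter C, and embryo 3 lay below the whole ICM range. Dkk1, a secreted WNT antagonist, was at 58.4, 130 and 222 CPM in PrE and 8.27 to 74.5 CPM in ICM, with overlap (adjusted p = 0.238). Wnt7b shows how far cell 7 can carry a sum: embryo 1 had 131 CPM with it and 0.0979 CPM without it, beside 0.448 and 0 CPM in embryos 2 and 3 and at most 4.58 CPM in the ICM. Lifr and Il6st, which form the LIF receptor, averaged 79 ± 33.6 and 39.7 ± 42.1 CPM in PrE and 25.2 ± 22.1 and 85.3 ± 113 CPM in ICM, with overlap and adjusted p of 0.385 and 0.788. The other 9 tested members (Fgfr1, Fgfr3, Fgfr4, Fgf3, Lefty1, Frzb, Bmp6, Pdgfa and Vegfa) had adjusted p between 0.258 and 0.961. Bmp2, Cer1, Fgf8, Flt1, Fst, Ihh and Kdr were below the filter.

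The 28 genes of the basement membrane and its assembly lay mostly on the higher side, with 25 positive and 3 negative log2 fold changes and a median of 1.86 (1.98 without cell 7). Their PrE and ICM embryos did not overlap for 12 of the 28 genes higher in PrE and 1 gene lower, beside 6.2% higher and 8.35% lower among all tested genes, and 1 gene was called. Col4a2, a chain of collagen IV, rose: it stood at 126, 359 and 442 CPM in the PrE embryos against 29.2, 24.2, 16.5, 24.2 and 6.7 CPM in the ICM embryos. Every PrE embryo exceeded every ICM embryo, with the lowest value in embryo 1 (log2 fold change 3.96, SE 0.56, adjusted p = 0.026). Col4a1, its partner across the shared promoter region, stood at 174, 512 and 868 CPM in PrE and 18.4 to 168 CPM in ICM, which did not overlap but missed the threshold (adjusted p = 0.143). The laminin chain gene Lamc1 likewise showed 149, 316 and 448 CPM in PrE and 54.3 to 113 CPM in ICM (adjusted p = 0.0651). Lamb1 and Lama1, the other chains of laminin-111, averaged 801 ± 534 and 356 ± 252 CPM in PrE and 248 ± 125 and 119 ± 82.4 CPM in ICM, and their groups overlapped (adjusted p = 0.209 and 0.315). P4ha1, a prolyl hydroxylase that stabilises collagen, was at 350, 721 and 1006 CPM in PrE and 133 to 244 CPM in ICM. Its log2 fold change was 2.01 (SE 0.37, adjusted p = 0.0537) and 2.11 without cell 7, where it passed at 0.0287. Embryo 1 was the lowest PrE embryo for each of these genes named with embryo values.

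**Figure D2:**
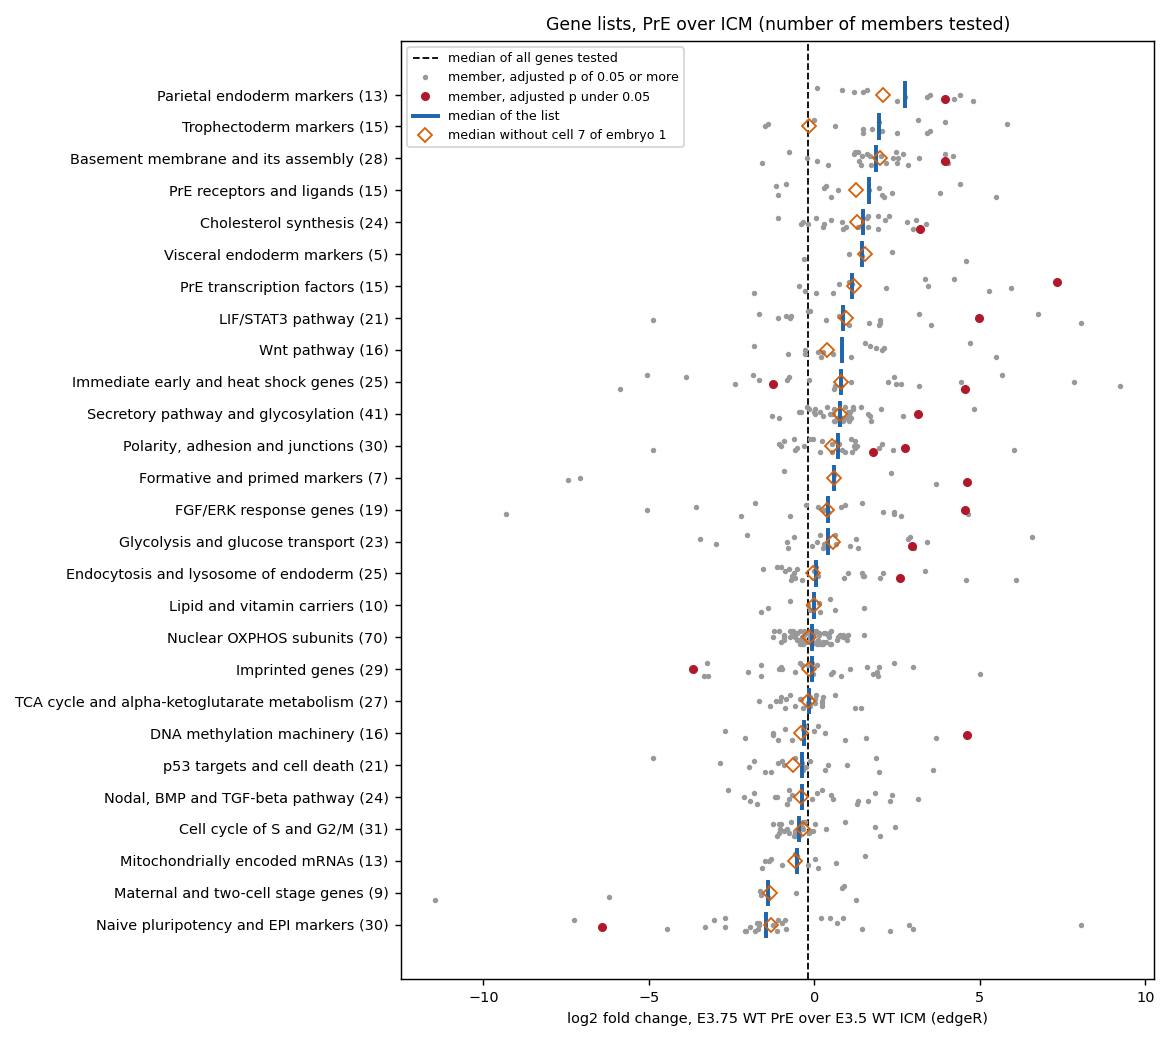
Log2 fold change of PrE against ICM (horizontal axis) for the tested members of each gene list (rows), with red points for genes past the adjusted p of 0.05, a blue bar at the list median, an orange diamond at the median without cell 7 and a dashed line at the median of all genes, −0.17. The median is 2.75 for parietal endoderm markers, 1.86 for the basement membrane and −1.46 for naive pluripotency markers, and the trophectoderm median of 1.96 moves to −0.15 without cell 7.

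All 13 tested parietal endoderm markers had positive log2 fold changes, with a median of 2.75, and 1, Col4a2, was called; without cell 7 the median was 2.07, with 11 of 13 positive. Snai1, a zinc-finger repressor, was at 110, 172 and 40 CPM in PrE and 1.23 to 11.5 CPM in ICM (adjusted p = 0.0749). Of the visceral endoderm markers only 5 of 16 passed the filter, 4 of them positive with a median of 1.46 and none called. Without PrE embryo 2 the median was −1.36, with 3 of 7 positive. Amn and Cubn, which form the cubilin receptor complex of absorptive endoderm, reached 0.963, 122 and 132 CPM and 47.7, 296 and 162 CPM in the PrE embryos, against 0 to 14.8 and 0.774 to 95.9 CPM in the ICM. For both genes embryo 1 lay inside the ICM range (adjusted p = 0.3 and 0.571). The 25 endocytosis and lysosome genes split 13 to 12 around 0, with a median of 0.06 (−0.07 to 0.25 without 1 embryo), and 1 was called, beside 0.243% called higher over all genes. Lamp1, the lysosomal membrane glycoprotein, rose: 1203, 1081 and 1331 CPM in PrE against 165, 134, 203, 169 and 346 CPM in ICM (log2 fold change 2.59, SE 0.32, adjusted p = 0.0127). The EPI sums of the same embryos were also high for Lamp1, at 981, 1131 and 873 CPM. Lipid and vitamin carriers, with 10 of 24 tested, had a median of 0.00 (−0.69 to 0.21 without 1 embryo) and no call. Among them Apoe, the apolipoprotein E gene, averaged 844 ± 558 CPM in PrE and 300 ± 313 CPM in ICM, with overlap (adjusted p = 0.486). The lysosomal protease gene Ctsc averaged 178 ± 30.9 CPM in PrE and 527 ± 331 CPM in ICM, without overlap (adjusted p = 0.191).

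The 30 naive pluripotency and epiblast markers had 9 positive and 21 negative log2 fold changes and a median of −1.46 (−1.31 without cell 7), with 14 not overlapping and lower in PrE, beside 8.35% of all tested genes, and 4 not overlapping and higher, beside 6.2%. Fgf4 was the called member and fell. It stood at 0.771, 0.868 and 0.306 CPM in the PrE embryos, against 35.5, 111, 19.8, 18.7 and 99.4 CPM in the ICM embryos. No PrE embryo reached 1 CPM, and the lowest ICM embryo was above 18 CPM (log2 fold change −6.40, SE 1.07, adjusted p = 0.0495). Per thinned cell, Fgf4 was at 10 CPM or more in 0 of 10 PrE cells, 22 of 61 ICM cells and 19 of 19 EPI cells. Zfp42, the pluripotency marker also called Rex1, was at 172, 119 and 66.6 CPM in PrE and 380 to 651 CPM in ICM. It missed the threshold at an adjusted p of 0.0523 (log2 fold change −2.10) and passed without cell 7 (−2.23, adjusted p = 0.0308). Nanog was at 134, 25.5 and 3.06 CPM in PrE and 215 to 844 CPM in ICM, without overlap (log2 fold change −3.29, SE 1.0, adjusted p = 0.186). Prdm14, a PR-domain regulator of naive pluripotency, was at 0.931, 0.543 and 0.153 CPM in PrE and 4.04 to 265 CPM in ICM (adjusted p = 0.0897). Tdgf1, a Nodal co-receptor, was at 1036, 256 and 46.3 CPM in PrE and 1391 to 2045 CPM in ICM, so embryo 1 came close to the ICM (adjusted p = 0.258).

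Dnmt3b, a de novo DNA methyltransferase counted here among formative markers, rose. It stood at 262, 1012 and 2191 CPM in PrE embryos 1, 2 and 3 against 43, 43.2, 60, 52.2 and 43.4 CPM in the ICM embryos. The ICM embryos lay close together, while the PrE embryos spread widely above them (log2 fold change 4.62, SE 0.56, adjusted p = 0.0124). Dnmt3b was the called one of 16 genes of the DNA methylation machinery, whose median was −0.32 (−0.60 without PrE embryo 2); Tet1, which oxidises methylated cytosine, averaged 205 ± 99.1 CPM in PrE and 491 ± 42.7 CPM in ICM without overlap (adjusted p = 0.127). Otx2, a homeobox factor of the formative epiblast, was at 0.0321 to 0.306 CPM in PrE and 11.4 to 33.7 CPM in ICM (adjusted p = 0.0721). The 7 tested formative and primed markers of 13 listed had a median of 0.60, with 4 positive. Its sign turned with single embryos: it was −0.91 without PrE embryo 1, −0.14 without PrE embryo 2 and 1.17 without PrE embryo 3, and between 0.28 and 2.59 without 1 ICM embryo. Of 29 imprinted genes tested of 46, 1 was called, and the median was −0.08 (−0.52 without PrE embryo 2 and 0.13 without PrE embryo 3). Snrpn fell, with 49.4, 21.1 and 17.3 CPM in PrE against 366, 647, 285, 275 and 277 CPM in ICM (log2 fold change −3.65, SE 0.51, adjusted p = 0.026), and the EPI sums lay between them at 118, 90.6 and 82.4 CPM.

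Signalling genes were mixed. Egr1, an immediate early factor and ERK response gene, rose: 950, 465 and 1008 CPM in PrE against 53.8, 21.9, 33.2, 18.2 and 47.2 CPM in ICM (log2 fold change 4.55, SE 0.45, adjusted p = 0.00855). It passed in 7 of the 8 fits without an embryo, and embryo 1 stood at 628 CPM without cell 7. The EPI cells of the same embryos were also high: the Egr1 median over cells, of each cell's own total, was 621 CPM in PrE, 342 CPM in EPI and 6.31 CPM in ICM. Of 19 FGF/ERK response genes 12 were positive and 1 was called, with a median of 0.43. The median was −0.10 without PrE embryo 2, with 9 of 19 positive, and between 0.13 and 0.69 without any other embryo. Summed over the listed genes, CPM were 1521 to 2667 in the PrE embryos, 1666 to 2267 in the EPI and 636 to 1091 in the ICM. Dusp4, an ERK phosphatase, was at 154, 164 and 454 CPM in PrE and 0.842 to 17.5 CPM in ICM, with an adjusted p of 0.0523 (0.0432 without cell 7). In the LIF/STAT3 pathway 13 of 21 genes were positive and 1 was called, with a median of 0.86, which was 0.25 without PrE embryo 1 and 0.28 without PrE embryo 3. Against the EPI sums of the same embryos 7 of 21 were positive, with a median of −0.54. Summed over this list, CPM were 977 to 1917 in the PrE embryos, 1195 to 2089 in the ICM and 1896 to 2793 in the EPI. Pim3, a serine/threonine kinase, rose, at 166, 54.2 and 137 CPM in PrE against 0.739 to 7.54 CPM in ICM (log2 fold change 4.99, SE 0.86, adjusted p = 0.04996). Socs1, a feedback inhibitor of cytokine signalling, was at 73.9, 77.8 and 67.6 CPM in PrE and 0 to 1.58 CPM in ICM, yet missed the threshold (adjusted p = 0.0749). The 16 Wnt pathway genes had a median of 0.84 (0.39 without cell 7) and the 24 Nodal, BMP and TGF-beta genes one of −0.37, with no call in either. The sign of both turned with single embryos. The Wnt median was −0.47 without PrE embryo 1, with 8 of 18 positive, and 1.47 without PrE embryo 3. The Nodal, BMP and TGF-beta median was −1.47 without PrE embryo 2, 0.06 without PrE embryo 3 and 0.20 without ICM embryo 21. Wnt6, a WNT ligand, averaged 46.3 ± 28 CPM in PrE and 1.8 ± 2.62 CPM in ICM (adjusted p = 0.207). Id3, a BMP response gene, and Gdf3, a TGF-beta family ligand, averaged 110 ± 91.6 and 83.4 ± 61.1 CPM in PrE and 476 ± 201 and 286 ± 84.5 CPM in ICM, without overlap (adjusted p = 0.153 and 0.168). Immediate early and heat shock genes, 25 in all, gave 1 call in each direction, Egr1 and Hspa8, and a median of 0.80, which was 0.22 without PrE embryo 1, 0.48 without ICM embryo 16 and 1.36 to 1.86 without PrE embryo 2, PrE embryo 3, ICM embryo 21 or ICM embryo 22. The CPM summed over this list went against that sign. They were 5602 to 7562 in the PrE embryos, 9531 to 17068 in the ICM and 6647 to 9901 in the EPI.

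The constitutive chaperone gene Hspa8 fell, at 1732, 1332 and 1582 CPM in PrE against 3726, 4231, 3626, 3350 and 3753 CPM in ICM (log2 fold change −1.25, SE 0.19, adjusted p = 0.0321). Stip1, a co-chaperone of HSP70 and HSP90, fell as well, with 335 to 512 CPM in PrE against 1159 to 1460 CPM in ICM (log2 fold change −1.52, SE 0.24, adjusted p = 0.0324). Tmx2, a thioredoxin-related membrane protein gene, fell by 1.84 on the log2 scale at the adjusted p of 0.04996, which was 0.0556 without cell 7. A further 3 called genes were close to 0 in the PrE. Aurkc, an Aurora kinase of germ cells and early embryos, was at 0.385, 0.434 and 0.153 CPM in PrE and 9.34 to 75.5 CPM in ICM (adjusted p = 0.04996, and 0.0538 without cell 7). Actn2, an actin-binding alpha-actinin, had 6 counts over the 3 PrE sums and 8.26 to 56.5 CPM in ICM, and Sdcbp2, a PDZ-domain gene, had 1 count in the PrE and 8.85 to 111 CPM in ICM, so no fold is given for them. Another 5 genes that fell are the mitochondrial 12S ribosomal RNA mt-Rnr1 and the non-coding or pseudogene entries Gm21399, Gm1821, Gm15459 and Gm26825, which were named after their values were seen. Reads of the pseudogenes may be shared with their parent genes, and their values are uncertain. mt-Rnr1 was at 1063, 406 and 811 CPM in PrE against 5625 to 8229 CPM in ICM (log2 fold change −3.13, SE 0.33, adjusted p = 0.00855), and the EPI sums were at 1074, 414 and 437 CPM.

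The largest rises also took in genes of general cell biology. Srm, the spermidine synthase, rose, at 356, 481 and 284 CPM in PrE against 8.7, 26.7, 9.31, 20 and 29.1 CPM in ICM (log2 fold change 4.34, SE 0.47, adjusted p = 0.00855). Rnf187, a ubiquitin ligase gene, showed 212, 263 and 316 CPM in PrE against 10.3 to 32.7 CPM in ICM (log2 fold change 3.78, SE 0.43, adjusted p = 0.00855). Map2k2, which encodes the ERK kinase MEK2, was at 188, 197 and 234 CPM in PrE against 3.42 to 29.2 CPM in ICM (log2 fold change 4.01, SE 0.70, adjusted p = 0.04996). For these 3 genes the EPI sums were close to the PrE sums, at 304 to 345 CPM for Srm, 162 to 228 CPM for Rnf187 and 147 to 180 CPM for Map2k2. Scand1, a SCAN-domain gene, was at 29.4, 29.4 and 40.6 CPM in PrE against 0.334 to 0.871 CPM in ICM (log2 fold change 6.09, SE 0.96, adjusted p = 0.0321). Rap1gds1, an exchange factor for small GTPases, was at 26.9, 60.2 and 148 CPM in PrE against 1.02 to 3.19 CPM in ICM (log2 fold change 5.12, SE 0.78, adjusted p = 0.0321). Mgst3, a microsomal glutathione S-transferase, was at 209, 198 and 236 CPM in PrE against 4.58 to 37.6 CPM in ICM (log2 fold change 3.72, SE 0.61, adjusted p = 0.046). Its embryo 1 value was 60.3 CPM without cell 7, where the adjusted p was 0.0786. Pon2, a lactonase gene of the paraoxonase family, was at 91.4, 0.583 and 27.2 CPM in PrE and had 5 counts over the 5 ICM sums (adjusted p = 0.0445, and 0.0659 without cell 7). The other 14 genes that rose were named after their values were seen: Anp32b, Atp1b1, C1qbp, Cdc34, Marcksl1, Polr2m, Ppp3r1, Rac1, Spint2, Srsf2, Uck2, Yipf4, Zdhhc3 and Zyx, with log2 fold changes between 2.12 and 3.70. Of these, Atp1b1, Marcksl1, Spint2 and Zyx were not called without cell 7.

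**Figure D3:**
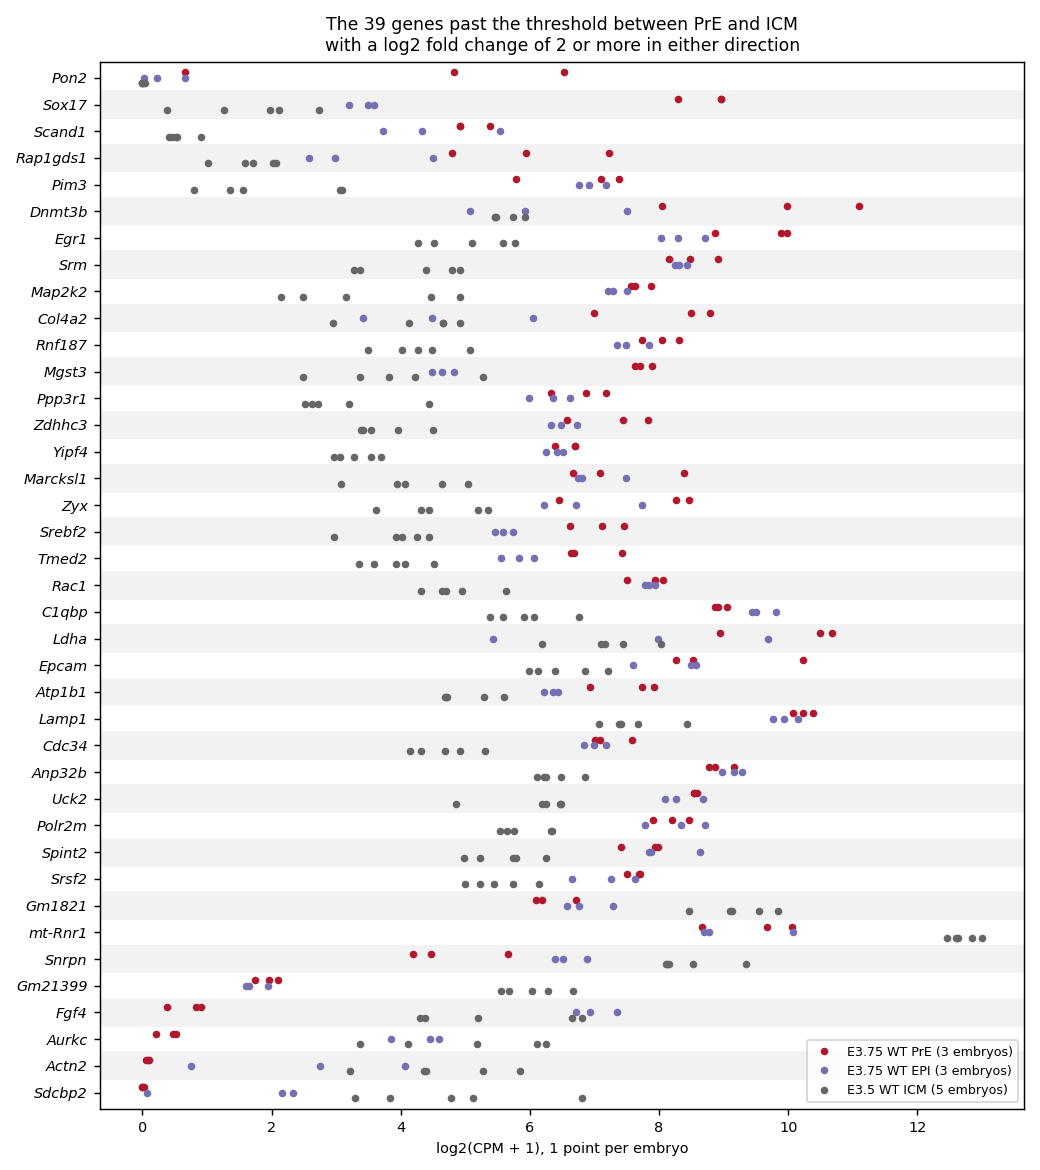
Levels of the 39 genes past the threshold between PrE and ICM with a log2 fold change of 2 or more in either direction, as log2(CPM + 1), with 1 row per gene and points for the PrE, EPI and ICM embryos. The groups of PrE and ICM points do not overlap in any row. In rows such as Srm, Rnf187, Lamp1 and mt-Rnr1 the EPI points lie among or near the PrE points, and in those of Sox17 and Fgf4 they lie apart from them.

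Of 41 secretory pathway and glycosylation genes 34 were positive, with a median of 0.78 (0.47 without PrE embryo 3), and Tmed2, a cargo receptor between the endoplasmic reticulum and the Golgi, rose: 98.4, 171 and 102 CPM in PrE against 9.25 to 21.8 CPM in ICM (log2 fold change 3.12, SE 0.48, adjusted p = 0.0321). Of 24 cholesterol synthesis genes 20 were positive, with a median of 1.46 that was 0.47 without PrE embryo 1. Srebf2, the transcription factor of that pathway, rose, at 175, 97.5 and 138 CPM in PrE against 6.83 to 20.6 CPM in ICM (log2 fold change 3.2, SE 0.49, adjusted p = 0.0321). Of 23 glycolysis genes 16 were positive, with a median of 0.42 (0.16 without PrE embryo 2, with 13 of 23 positive, and 0.65 without PrE embryo 3), and Ldha, the lactate dehydrogenase A gene, rose, at 490, 1440 and 1641 CPM in PrE against 72.3 to 259 CPM in ICM (log2 fold change 2.95, SE 0.47, adjusted p = 0.0389). Against the EPI sums 14 of 22 glycolysis genes were positive, with a median of 0.17. CPM summed over the glycolysis list were 5858 to 9155 in PrE, 4074 to 7419 in EPI and 2990 to 4914 in ICM. Cyp51, an enzyme of sterol synthesis, averaged 185 ± 135 CPM in PrE and 23.5 ± 16.5 CPM in ICM, with overlap (adjusted p = 0.162), and Dnajc3, a chaperone partner in the endoplasmic reticulum, 114 ± 97 CPM in PrE and 4.13 ± 3.32 CPM in ICM, without overlap (adjusted p = 0.0925). The glucose transporter gene Slc2a3 was at 289, 972 and 845 CPM in PrE and 30.8 to 172 CPM in ICM (adjusted p = 0.0537). The 27 TCA cycle genes, with a median of −0.17 (−0.30 to −0.06 without 1 embryo), and the 70 nuclear genes of oxidative phosphorylation, with one of −0.06 (−0.21 to 0.16), gave no call. Mdh2 and Sucla2 of the TCA cycle did not overlap, at 646 ± 48.4 and 234 ± 35.4 CPM in PrE and 1447 ± 358 and 759 ± 301 CPM in ICM (adjusted p = 0.0855 and 0.0792). Ndufa9 and Ndufa10, subunits of complex I, averaged 191 ± 29.8 and 172 ± 64.4 CPM in PrE and 458 ± 142 and 405 ± 88.7 CPM in ICM, also without overlap (adjusted p = 0.149 and 0.135). Among 30 polarity, adhesion and junction genes (median 0.72) the epithelial adhesion genes Cdh1 and Epcam rose, by log2 fold changes of 1.78 (SE 0.31) and 2.73 (SE 0.47), both at 0.04996. The EPI cells were also high for both. Medians over cells, of each cell's own total, were 311 and 421 CPM in PrE, 250 and 345 CPM in EPI and 57.1 and 36.4 CPM in ICM. Without cell 7, Cdh1 was at an adjusted p of 0.053, and Epcam at a log2 fold change of 2.07 and an adjusted p of 0.0432; in embryo 1 Epcam was at 1203 CPM with that cell and 518 CPM without it.

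The 15 tested trophectoderm markers had a median of 1.96, with 12 positive, and −0.15 with 5 positive when cell 7 was left out, so that median moved with 1 cell. It was −0.63 without PrE embryo 1 and 3.09 without PrE embryo 3. Krt18 was at 1260 CPM in PrE embryo 1 with it and 72.5 CPM without it, beside 1.93 and 19.9 CPM in the other PrE embryos and 40.4 ± 23.4 CPM in ICM. Cldn7, a tight junction claudin gene, averaged 239 ± 223 CPM in PrE with that cell and 103 ± 24.1 CPM without it, against 57.8 ± 36.1 CPM in ICM (adjusted p = 0.176 with the cell). Of 31 cell cycle genes 25 were negative (median −0.46), of 21 p53 targets and cell death genes 15 (median −0.37, and −0.94 without PrE embryo 1), of 9 maternal and 2-cell stage genes 6 (median −1.41, and −0.72 without ICM embryo 13) and of 13 mitochondrially encoded mRNAs 9 (median −0.52); none was called. Among them Cdt1 and Ccna2, which act in replication licensing and as a cyclin, stood higher in PrE, against the sign of their list's median. They averaged 183 ± 28 and 390 ± 158 CPM in PrE and 33.6 ± 28.9 and 111 ± 58.9 CPM in ICM (adjusted p = 0.133 and 0.149). The pro-apoptotic gene Bid averaged 1.3 ± 1.84 CPM in PrE and 39.1 ± 26.4 CPM in ICM (adjusted p = 0.167). mt-Nd6, a subunit of complex I, also went against its list's median, at 253 ± 39.1 CPM in PrE and 88.1 ± 44.8 CPM in ICM (adjusted p = 0.157). mt-Co1, a subunit of cytochrome oxidase, averaged 13322 ± 1739 CPM in PrE and 19428 ± 1096 CPM in ICM (adjusted p = 0.19). Zp2, an egg coat gene, had 0 counts in the PrE sums, which allows up to 0.0254 CPM, and averaged 6.25 ± 7.83 CPM in ICM (adjusted p = 0.19).

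The PrE cells were next compared with the 19 EPI cells of the same 3 embryos, which share stage and letter with them. The comparison uses the same PrE sums as the one above, so both comparisons share samples. How the cells got their PrE and EPI labels is not stated. If expression was used, a difference in the genes used was fixed in advance, and their adjusted p test nothing further. Of 12733 genes tested, 3 were higher in PrE (0.0236%) and 1 lower (0.00785%), with 1190 at an unadjusted p under 0.05. Sox17 was higher, with EPI sums of 11, 8.15 and 10.2 CPM against which the PrE values above give a log2 fold change of 5.47 (SE 0.30, adjusted p = 0.0119). Dkk1 was higher, with 0.331, 0.423 and 0.429 CPM in EPI (log2 fold change 8.43, SE 0.69, adjusted p = 0.0337), and Mgst3 was higher, with 23.9, 21.3 and 27.3 CPM in EPI (log2 fold change 3.14, SE 0.24, adjusted p = 0.0223). Fgf4 was lower in PrE, with 105, 163 and 122 CPM in EPI (log2 fold change −7.59, SE 0.54, adjusted p = 0.0223). All 4 genes were at an adjusted p of 0.185 when embryo was added as a pairing term, and 0 genes passed in that fit.

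With cell 7 left out, 4 genes were higher in PrE than in EPI (0.0316% of 12643) and 2 lower (0.0158%): Sox17, Foxq1, Dkk1 and Adora1 were higher and Pou2f3 and Fgf4 lower. With all cells, Foxq1 averaged 79.1 ± 40.3 CPM in PrE and 0.503 ± 0.21 CPM in EPI (adjusted p = 0.0638). Adora1, an adenosine receptor gene, averaged 57.2 ± 30.3 CPM in PrE and 0.146 ± 0.0795 CPM in EPI (adjusted p = 0.0699), and Pou2f3, a POU-domain factor, 0.195 ± 0.0545 CPM in PrE and 45.2 ± 17.2 CPM in EPI (adjusted p = 0.0507). Prdm14 averaged 0.542 ± 0.389 CPM in PrE and 107 ± 16.6 CPM in EPI (adjusted p = 0.0507), and Gata4 304 ± 144 CPM in PrE and 3.79 ± 2.34 CPM in EPI (adjusted p = 0.0959). Pdgfra, which overlapped between PrE and ICM, did not overlap here, at 289 ± 43.7 CPM in PrE and 19.4 ± 29.8 CPM in EPI, and neither did Gata6, at 95.9 ± 31.1 CPM in PrE and 14.2 ± 13.2 CPM in EPI; their adjusted p were 0.421 and 0.255. Kdm5b, a histone demethylase gene, averaged 64.2 ± 12.4 CPM in PrE and 401 ± 72.9 CPM in EPI (adjusted p = 0.0507). Aldh18a1, which makes the proline precursor pyrroline-5-carboxylate, averaged 112 ± 9.72 CPM in PrE and 6.01 ± 2.81 CPM in EPI (adjusted p = 0.0745), and Zfp57, which maintains methylation at imprinted regions, 25.1 ± 8.54 CPM in PrE and 204 ± 62.2 CPM in EPI (adjusted p = 0.12). Leaving out any 1 EPI embryo or PrE embryo 2 left 0 genes past the threshold, with 930 to 1430 at an unadjusted p under 0.05, whereas 18 passed without PrE embryo 1 and 6 without PrE embryo 3.

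The PrE cells also differed among themselves, which is described here without a test, on genes chosen after their values were seen. In the 9 cells other than cell 7, Sox17 lay between 269 and 966 CPM of the cell's own total and Gata4 between 194 and 496 CPM, whereas Tdgf1 ranged from 9.51 to 1556 CPM and Foxa2 from 0 to 157 CPM. Tdgf1 was at 1556 and 1543 CPM in cells 4 and 6 of embryo 1 and at 958 and 1023 CPM in cells 2 and 12 of embryo 2. Foxa2 in these cells was at 0, 0, 0.133 and 0.0965 CPM, Sox7 at 13.8, 18.02, 24.04 and 0.676 CPM, and Dab2, an endocytic adaptor, at 0, 17.5, 14.6 and 2.12 CPM. Tdgf1 was at 16.7, 23.5, 36.7 and 9.51 CPM in cells 1, 10, 11 and 15 of embryo 2 and at 49.95 CPM in cell 8 of embryo 3. Foxa2 in these cells was at 38.7, 36.1, 157, 50.8 and 47.3 CPM, Sox7 at 578, 116, 270, 544 and 757 CPM, and Dab2 at 154, 148, 662, 878 and 259 CPM. The sums of embryo 1, low in Sox7, Foxa2 and Dab2, hold none of these last 5 cells.

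**Figure D4:**
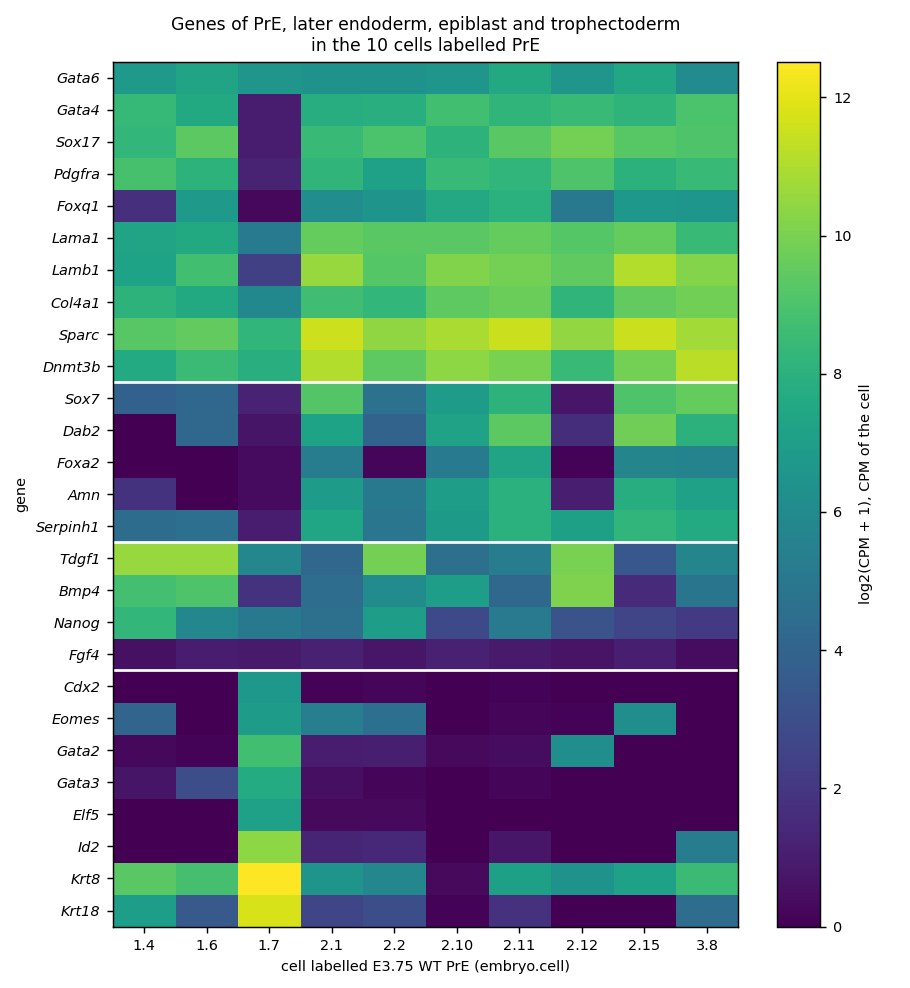
Heat map of 27 genes (rows) in the 10 PrE cells (columns, by embryo and cell), as log2(CPM + 1) of the cell's own total. Cell 7 of embryo 1 has high Krt8 and Krt18 and nearly no Sox17 or Gata4, and cells 4 and 6 of embryo 1 and cells 2 and 12 of embryo 2 have Foxa2 at 0.133 CPM or less.

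The change between PrE and ICM was set beside that of the Stat3 -/- embryos, whose 4 PrE sums hold 2 to 5 cells each and come from male embryos only, and whose ICM sums come from 5 embryos, 4 of them female. STAT3 is the transcription factor that LIF signalling activates. The difference between the 2 genotypes' changes was tested as an interaction: 0 of 15614 genes passed (0% higher, 0% lower), with 1436 at an unadjusted p under 0.05, and 534 passed with DESeq2. Sox17 averaged 408 ± 186 CPM in MUT PrE and 77.1 ± 67.1 CPM in MUT ICM (SD, n = 4 and 5; edgeR adjusted p of the difference 0.307). Col4a2 averaged 314 ± 24.5 CPM in MUT PrE and 75.8 ± 78.8 CPM in MUT ICM (adjusted p = 0.601), Dnmt3b 1335 ± 394 CPM in MUT PrE and 119 ± 75.5 CPM in MUT ICM (adjusted p = 0.755), Egr1 723 ± 366 CPM in MUT PrE and 60.6 ± 50.6 CPM in MUT ICM (adjusted p = 0.904) and Gata4 325 ± 61.2 CPM in MUT PrE and 92.9 ± 156 CPM in MUT ICM (adjusted p = 0.847). A p that misses the threshold does not show that the genotypes changed alike. The smallest adjusted p, 0.0897, was shared by Pon2, Ly6g6e, Gm12790, Ptges and Sash3. Ptges, a prostaglandin E synthase gene, averaged 0.0246 ± 0.0214 CPM in MUT PrE and 23.5 ± 20.7 CPM in MUT ICM, beside 44.9 ± 51.4 CPM in WT PrE and 119 ± 80.4 CPM in WT ICM. Ly6g6e, a LY6-family gene, averaged 0.106 ± 0.0443 CPM in MUT PrE and 62.1 ± 66.7 CPM in MUT ICM, beside 45.6 ± 38.1 CPM in WT PrE and 103 ± 110 CPM in WT ICM.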

How the data were processed

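RNA was sequenced from single cells of mouse embryos. The authors deposited raw counts as whole numbers in 1 table of 49671 gene rows by 171 cells. Alignment and counting involved STAR and HTSeq on mm10, per the submitters' processing notes. Their versions and settings, strandedness and library preparation were not given in those notes or labels. Counts may include PCR copies, so floors (3 counts over a group) cover counting error only. Of the rows, 49412 matched the GENCODE vM21 annotation of that build; the 259 others held 0.0101% of counts. No columns were left out, and no pair of cells had identical counts.

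Counts were summed per embryo (the first number after the genotype in the title, taken as the embryo) and lineage; no cell was removed or clustered, and no search for doublets was made. The labels give no culture or litter, so p-values measure the spread between these embryos. Each comparison was fitted on its own groups with edgeR 4.0.16 in R 4.3.3 (robust quasi-likelihood test after TMM scaling; genes kept by filterByExpr at a minimum count of 10) and Benjamini-Hochberg adjustment at 0.05 over all tested genes, and the fit was tested on simulated data. An SE is the absolute log2 fold change over the square root of F and restates the test. CPM are TMM-scaled over all 24 sums, with mean ± SD over embryos, and fold changes are log2. PrE and EPI sums of 1 number come from the same embryo. The correlations of their deviations from the group means were 0.141, 0.121 and 0.0586. Between different embryos they were −0.126 to 0.0379. The main test leaves this pairing out, and embryo as a block was an alternative fit. Embryo sex was called from 4 Y-linked genes against Xist. Limma 3.58.1 and DESeq2 1.42.0 served as alternatives.

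Named genes are the largest protein-coding changes (up to 12 each way with a mean of at least 20 CPM in the higher group and 1 sign in every fit that left out an embryo), all PrE factors, receptors and ligands, the members of each other list with the smallest p, and the smallest adjusted p of the other 2 comparisons. Some genes chosen by this rule are not reported here. The members and the 27 lists were chosen with earlier results of these data known.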

Additional observations from a re-analysis of the deposited data

Results flagged for a closer look

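In 22 of the 100 tested genes chosen by the naming rule, 1 of the 5 ICM embryos stood apart from the other 4 by a Dixon test on CPM. Chance flags about 1 in 20 groups where values are normally distributed. The CPM were not put on a log scale, and every flagged embryo stood high, as skewed values alone can give. For Foxa2 the other 4 ICM embryos had no counts, so any count in the fifth would be flagged. The 22 flags therefore cannot be set against that rate. ICM embryo 22 stood high for 11 genes: Amn at 14.8 CPM, Cldn7 at 121 CPM, Foxa2 at 4.08 CPM, Frzb at 5.99 CPM, Id3 at 831 CPM, Il6st at 285 CPM, Ly6g6e at 297 CPM, Ndufa10 at 559 CPM, Ptges at 261 CPM, Rhox5 at 239.5 CPM and Wnt7b at 4.58 CPM. ICM embryo 13 stood high for Cdt1 at 83.3 CPM, Fgf3 at 15.9 CPM, Mycn at 91.7 CPM and Nlrp14 at 9.71 CPM. ICM embryo 16 stood high for Scand1 at 0.871 CPM, Sdcbp2 at 111 CPM, Snrpn at 647 CPM and Zp2 at 19.8 CPM. ICM embryo 21 stood high for Foxq1 at 5.23 CPM and Gata4 at 74.0 CPM, and ICM embryo 20 for Bmp6 at 6.997 CPM. Of these genes, Scand1, Sdcbp2 and Snrpn were called between PrE and ICM, and in each the embryo that stood apart still lay outside the PrE range.

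The change from ICM differed between the 2 lineages of the same E3.75 embryos for 4 genes, by the test of PrE against EPI itself (edgeR adjusted p between 0.0119 and 0.0337). The log2 fold changes of PrE against EPI were 8.43 for Dkk1, 5.47 for Sox17, 3.14 for Mgst3 and −7.59 for Fgf4. Each PrE embryo lay beyond each EPI embryo for all 4 genes. The way the cells got these labels is not stated, so for any gene used to give them the separation was fixed in advance. With embryo as a pairing term, none of the 4 passed (adjusted p = 0.185 for each), and without cell 7 Mgst3 missed the threshold at an adjusted p of 0.235.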

How the results depend on the processing

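The 46 genes called between PrE and ICM kept their direction under every alternative that tested them, but their number depends on the test, on the scaling and on single embryos. It was 33 with RLE scaling, 118 with no low-count filter, 1192 with DESeq2, 2071 with limma-trend on embryo means, 565 with limma-voom sample weights, 187 with cells thinned to one depth, 120 over protein-coding genes, 249 with all sums in 1 fit, 12 with sex in the model and 8 against a null of a 2-fold change. Leaving out each embryo gave 0 to 42. The share of calls that were higher was 69.6% in the main test, 39.8% with DESeq2 and 97.2% with limma-trend, which moved the median of all genes by 0.74 on the log2 scale. Alternatives chosen after seeing the data left out cell 7: the count was then 47, 1201 with DESeq2, 458 with limma-voom weights, 22, 8 and 4 without PrE embryos 1, 2 and 3. Limma-voom weights without PrE embryo 3 gave 380.

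Between PrE and EPI 4 genes were called, 7 with RLE scaling, 32 with no low-count filter, 731 with DESeq2, 7 with limma-trend and 0 to 18 without each embryo. With embryo as a replicate block, 0 were called with or without cell 7 (1047 at an unadjusted p under 0.05 without it). The genotype difference gave 0 calls, 4 with no low-count filter, 534 with DESeq2 and 0 to 1 without each embryo. Without each embryo, PrE exceeded ICM by 2237.5 to 2585.5 detected genes and by 6693838 to 7528909.5 counts per cell (exact permutation p 0.0571 or 0.0952, the smallest those designs allow).

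Of 27 list medians, 13 kept their sign in all 26 alternatives (basement membrane, parietal endoderm, PrE factors, PrE receptors and ligands, naive markers, secretory pathway, cholesterol synthesis, glycolysis, polarity, immediate early genes, LIF/STAT3, maternal genes and mitochondrial mRNAs). The trophectoderm median ranged from −1.29 to 3.11. With 3 PrE embryos, 1 of them a single cell, a gene that missed the threshold is not shown to be equal. The causes of these differences were not tested.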
